A study of Mus musculus with 56 samples.

Results

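The amino acid response directed by the transcription factor ATF4, together with the cytosolic aminoacyl-tRNA synthetases, was followed as a list of 39 genes in mouse CD4 T cells. Members were matched by gene symbol in both count tables, and those with under 10 counts in either table were skipped. This kept 36 of the 39, among 19791 symbols in experiment 1 and 24421 in experiment 2. The skipped members were Slc7a11, the cystine transporter gene (10 counts in experiment 1 and 1 in experiment 2), Pycr1, of proline synthesis (16 and 8 counts), and Sars, the seryl-tRNA synthetase gene (3308 and 9 counts). Mars, the methionyl-tRNA synthetase gene, had 81 counts in experiment 1 and did not pass the filter on low counts there. The members tested were therefore 36 in experiment 2 and 35 in experiment 1.

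When amino acids run short or proteins misfold, eIF2 kinases phosphorylate the translation factor eIF2, which slows general protein synthesis while the Atf4 mRNA is translated more. ATF4 pairs with C/EBP proteins and binds C/EBP-ATF response elements in genes for amino acid synthesis, amino acid transport and tRNA charging, and in stress genes such as Ddit3, which encodes CHOP. Because ATF4 is set largely through translation, its mRNA level is not a measure of its activity. T cells that leave quiescence build new protein at a high rate, and amino acid transporters and one-carbon enzymes are known requirements of that growth.

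CD4 T cells from the spleens of C57BL/6 mice were cultured with beads that carry antibodies against CD3 and CD28, with no cytokine added. Experiment 2 has 38 libraries. Cells started at 1000000 per ml (high concentration) or 62500 per ml (low concentration) were taken at 18, 30, 48 and 72 h, and cells started at 250000 per ml were sorted at 48 and 72 h as CD62L positive or CD62L negative, both CD44 positive. Naive cells (CD44 negative, CD62L positive) were taken without activation. Experiment 1 has 18 libraries. Its cells, started at 250000 per ml, were divided by CD62L at 48 and 72 h into positive and negative cells, beside unactivated mature (CD44 positive, CD62L negative) and naive cells. There are 3 libraries to a group, but 2 for the low concentration at 72 h. The labels do not say whether libraries of a group came from separate mice or cultures, so p-values measure the spread between these libraries.

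Libraries hold 587118 to 3359875 counts in experiment 2 and 58750 to 1738555 in experiment 1, where the shallowest is naive replicate 1. Levels are CPM, counts scaled to library size with TMM factors, set within each experiment and never across them. Differences are log2 values ± SE, and "rose", "fell" and "passed" refer to edgeR's quasi-likelihood test, with p-values adjusted by Benjamini and Hochberg's method over each whole table and a limit of 0.05. All 6 markers of CD4 T cells were detected in every group. Summed B-cell markers (5 genes) reached at most 14.9 CPM in experiment 2, where red cell and platelet markers were at 0. Myeloid markers (5 genes) summed there to 83.3 to 301 CPM, with 211 to 301 CPM in naive cells and 137 to 199 CPM at 18 h. Markers of CD8 T and NK cells (5 genes) summed to 15.5 to 104 CPM, with 44.7 to 51.0 CPM in naive cells and 54.6 to 104 CPM at 18 h. Their part in the results was not tested. In experiment 1 the B-cell markers summed to 5.33 to 16.3 CPM in activated cells, 458 to 489 CPM in mature cells and 745 to 1296 CPM in naive cells. In these bulk samples fewer cells of a type and less RNA per cell cannot be told apart.

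The promoters were searched for the response element in the letters TGATGNAA, on both strands (TTNCATCA on the other), over 250 bases before to 50 bases after the start in RefSeq promoters of GRCm38.p6. Of the 36 members kept, 27 were found in that table by symbol. Slc7a5, Cars, Hars, Lars, Mars, Nars, Rars, Vars and Wars were not. A match was found for 8 of the 27, against 4.51% of all symbols and 3.97% of all promoters of this length. Shown are 30-base windows of 7 of these, the members that the results below turn on and synthetases that hold a match, with the element in capitals, read in the direction of transcription. The count files were made on another build and hold no coordinates.
Asns, chr6:7693214-7693243, minus strand: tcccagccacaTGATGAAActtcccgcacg
Chac1, chr2:119351038-119351067, plus strand: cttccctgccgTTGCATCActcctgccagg
Trib3, chr2:152344028-152344057, minus strand: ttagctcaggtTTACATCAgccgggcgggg
Gars, chr6:55037960-55037989, plus strand: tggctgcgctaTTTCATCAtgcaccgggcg
Iars, chr13:49682126-49682155, plus strand: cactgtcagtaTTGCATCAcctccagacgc
Tars, chr15:11399655-11399684, minus strand: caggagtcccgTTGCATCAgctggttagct
Yars, chr4:129189895-129189924, plus strand: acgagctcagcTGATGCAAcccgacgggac
The elements begin 23 bases before the start in Asns, 193 before it in Chac1, 30 before it in Gars and 15 before it in Tars. They begin at base 15 of the transcript in Trib3, base 8 in Iars and base 4 in Yars. Asns and Yars carry the letters on the coding strand and the other 5 shown on the opposite strand. No match in the other promoters says only that these letters are not in the window, and a match is a description, not a site of binding.

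Activation raised most of the list within 18 h, while Ddit3 and Trib3, 2 of the 4 stress effectors, fell. In experiment 2 over both concentrations, 30 of 36 members rose and 2 fell against naive cells (n = 6 and 3 libraries), where 32.3% of all 9239 genes tested rose and 33.6% fell. The median difference over the members was 1.36 (1.33 with Bcat1 and Chac1, at 0 in naive cells, set to a floor of 3 counts over the group), against 0.00 over all genes tested. The calls of 31 of the 32 held under every alternative tried.

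The largest rises were those of Bcat1, Slc7a5, Asns and Psat1. Bcat1, which transaminates branched-chain amino acids, had 8.38, 3.73 and 6.41 CPM at the high and 10.2, 7.28 and 10.7 CPM at the low concentration at 18 h, and 0 in all 3 naive libraries. Over the floor it was at least 12.0-fold higher. Slc7a5, the large neutral amino acid transporter LAT1, had 29.8, 40.3 and 22.9 CPM at the high and 38.0, 32.7 and 35.7 CPM at the low concentration, against 1.54, 1.87 and 1.06 CPM in naive cells. It rose by 4.44 ± 0.43 (edgeR adjusted p = 7.57e-13), and the activated and naive libraries did not overlap. Asns, asparagine synthetase, had 4.66, 5.22 and 9.16 CPM at the high and 7.30, 4.85 and 3.57 CPM at the low concentration. Naive cells held a single Asns count in 3 libraries, which gives a ratio of 29.0 with an exact 95% counting interval of 4.91 to 1177.

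In the serine pathway 5 of 5 members rose. Psat1, phosphoserine aminotransferase, had 195, 194 and 221 CPM at the high and 171, 148 and 139 CPM at the low concentration at 18 h, against 23.9, 6.84 and 18.6 CPM in naive cells. Its difference was 3.44 ± 0.25 (edgeR adjusted p = 1.65e-16). Shmt2, the mitochondrial serine hydroxymethyltransferase, rose by 2.38 ± 0.19, and Mthfd2, the next mitochondrial folate enzyme, by 1.67 ± 0.16. Psph, which completes serine synthesis, rose by 1.56 ± 0.16 and Phgdh, which commits carbon to it, by 1.34 ± 0.23. Atf4 itself rose by a smaller amount. It had 533, 548 and 578 CPM at the high and 566, 549 and 512 CPM at the low concentration, against 359, 287 and 380 CPM in naive cells, a difference of 0.68 ± 0.11.

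Among transporters, the arginine and lysine carrier Slc7a1 rose by 1.46 ± 0.17 and Slc3a2, the heavy chain that pairs with Slc7a5, by 1.16 ± 0.16. Slc38a2, a glutamine and alanine carrier that ATF4 is known to drive in starved cells, differed by 0.03 ± 0.13, and its sign changed under 3 alternatives. Aldh18a1, of proline synthesis, differed by 0.48 ± 0.31 and did not pass.

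All 19 synthetases rose at 18 h, by 0.42 to 2.34 with a median of 1.32. Rars, Kars and Iars, which charge the tRNAs for arginine, lysine and isoleucine, rose by 2.34 ± 0.15, 2.23 ± 0.16 and 2.18 ± 0.16. The smallest rises were those of Qars (glutamine) at 0.42 ± 0.15 and Vars (valine) at 1.02 ± 0.27. Gars, for glycine, had 411, 387 and 378 CPM at the high and 326, 315 and 314 CPM at the low concentration, against 122, 97.0 and 99.9 CPM in naive cells. Wars, for tryptophan, had 136, 148 and 133 CPM at the high and 128, 142 and 127 CPM at the low concentration, against 51.7, 82.7 and 41.4 CPM in naive cells. For Gars and Wars the 6 activated libraries lay above the 3 naive ones. By the test, 32.3% of all genes rose in this comparison.

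Of the 4 stress effectors, 2 fell at 18 h and 2 did not pass. Ddit3 (CHOP) had 19.6, 19.4 and 12.8 CPM at the high and 26.3, 35.2 and 16.0 CPM at the low concentration at 18 h, against 107, 124 and 90.3 CPM in naive cells. It fell by 2.31 ± 0.18 on the log2 scale (edgeR adjusted p = 7.63e-16). Trib3, a pseudokinase that CHOP and ATF4 induce, had 0 to 2.43 CPM at 18 h, against 10.0, 6.22 and 6.91 CPM in naive cells, and fell by 2.48 ± 0.46. Chac1, a glutathione-degrading enzyme, had 3 counts in 6 libraries at 18 h and 0 in naive cells. Sesn2, a leucine sensor that restrains mTORC1, had at most 2.19 CPM at 18 h and 2.13 to 3.73 CPM in naive cells, a difference of -1.09 ± 0.71 that did not pass.

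**Figure D1:**
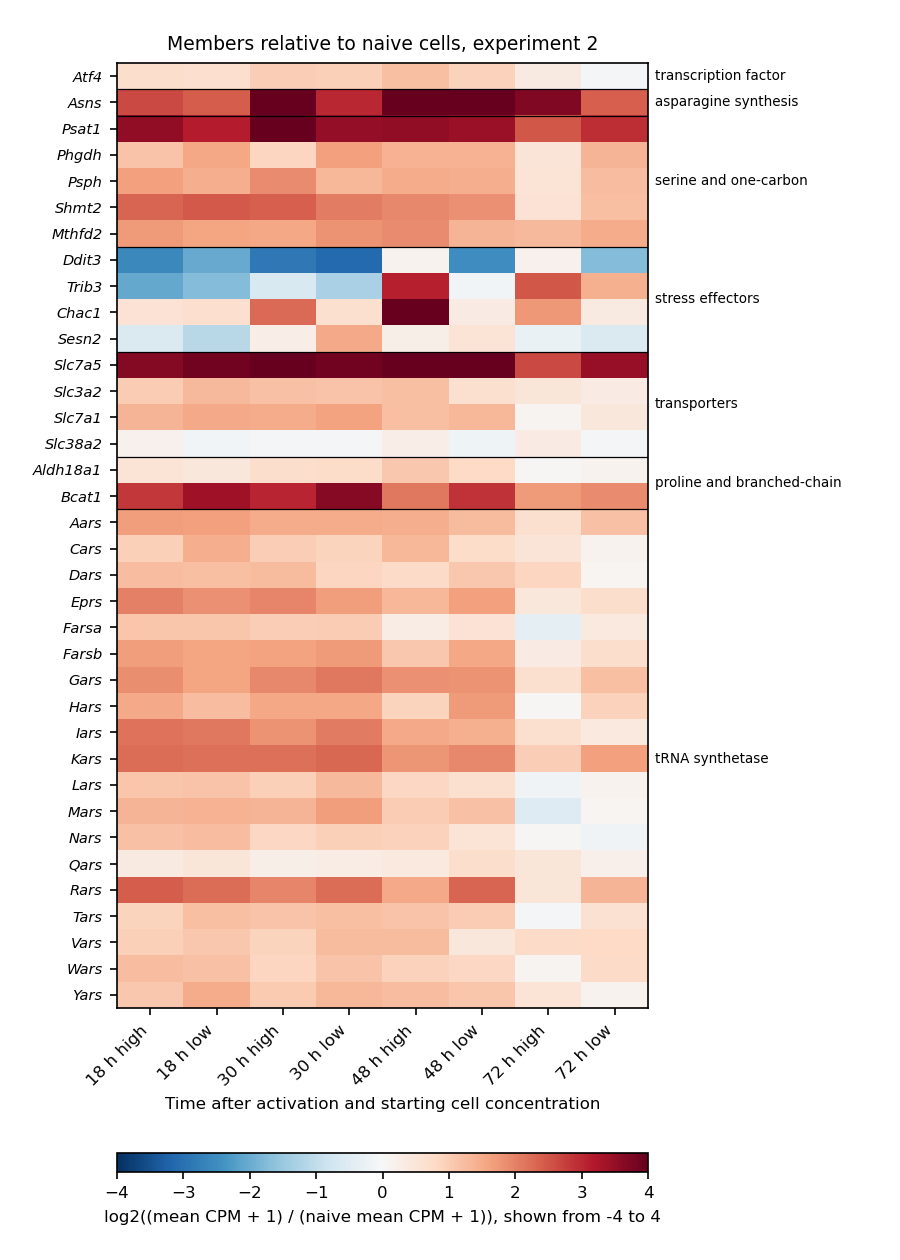
Each row is a member, grouped by role, and each column a time after activation in hours at the high or low starting concentration in experiment 2. Colour is log2 of the group mean (CPM + 1) over the naive mean (CPM + 1), so it understates low genes. Most rows are red at 18 h, and Ddit3 and Trib3 are blue until 48 h, when they differ between the concentrations.

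Beside the members, other lists were counted at 18 h against naive cells, where 32.3% of all genes rose and 33.6% fell. The other ATF4 and stress genes tested had 11 of 18 higher and 4 lower. The mitochondrial tRNA synthetases had 5 of 14 higher and 1 lower, so the share that rose was near that of all genes. Mthfd1l, a mitochondrial folate enzyme, rose by 2.51 ± 0.20 and Eif4ebp1, an inhibitor of cap-dependent translation, by 1.28 ± 0.15. Ppp1r15a, the phosphatase subunit that reverses eIF2 phosphorylation, fell by 2.77 ± 0.24 on the log2 scale, in the same direction as Ddit3. Yars2, Rars2 and Aars2 rose by 2.03 ± 0.22, 1.43 ± 0.24 and 1.31 ± 0.25. The 3 scaffold genes of the multi-synthetase complex all rose, with Eef1e1 at 2.70 ± 0.22, Aimp2 at 1.72 ± 0.17 and Aimp1 at 1.23 ± 0.12. Cytosolic one-carbon and nucleotide genes had 7 of 8 higher, led by Shmt1 at 5.07 ± 0.28, Mthfd1 at 2.49 ± 0.16 and Paics at 2.173 ± 0.15. Of the eIF2 kinases, eIF2 and its exchange factor, 7 of 11 rose and 3 fell, and of 10 genes of the ATF6 and XBP1 branches, chaperones and the factor Xbp1 among them, 7 rose and 1 fell. Eif2b3, Eif2b1 and Eif2b5, of the exchange factor, rose by 2.68 ± 0.26, 1.28 ± 0.14 and 1.41 ± 0.16, and the chaperone genes Hsp90b1, Calr and Sdf2l1 by 2.21 ± 0.13, 1.67 ± 0.13 and 2.84 ± 0.31.

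The same rise stood at 48 h in the sorted cells of both experiments, which share no library. In experiment 1, 32 of 35 members rose against naive cells and 0 fell (n = 6 and 3), where 30.3% of all 8961 genes rose and 31.8% fell. At an unadjusted p under 0.05 the count was also 32, and DESeq2 gave 32. In experiment 2, 29 of 36 rose and 1 fell, where 33.3% of all genes rose and 33.0% fell. Of the 35 members tested in both, 27 rose in both, which is 84.4% of those that rose in experiment 1 and 96.4% of those in experiment 2. The fitted differences of all 35 had the same sign. The shares of all genes that rose in both experiments or had the same sign in both were not counted.

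Bcat1 was the member furthest from naive cells in experiment 1. It had 157, 152 and 115 CPM in CD62L positive and 230, 226 and 209 CPM in CD62L negative cells at 48 h, and 0 in all naive libraries, so it was at least 39.1-fold higher over the floor. In experiment 2 it was at least 5.07-fold higher. Psat1 had 549, 652 and 581 CPM in CD62L positive and 640, 577 and 601 CPM in CD62L negative cells of experiment 1, against 93.1, 17.0 and 40.4 CPM in naive cells. It rose by 4.00 ± 0.27 there and by 3.49 ± 0.24 in experiment 2. Asns had 74.8 to 99.1 CPM in the 6 sorted libraries of experiment 1, against 15.5, 8.49 and 0 CPM in naive cells, where it held 3 counts in all. The ratio was 18.0, with an exact counting interval of 6.14 to 87.7. Chac1 had 25.7, 27.6 and 18.9 CPM in CD62L positive and 35.3, 35.8 and 32.2 CPM in CD62L negative cells, and 1 count in naive cells.

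The synthetases rose in 17 of 18 cases in experiment 1 and in 16 of 19 in experiment 2, where 30.3% and 33.3% of all genes rose. Gars rose by 3.33 ± 0.31 in experiment 1 and 1.63 ± 0.12 in experiment 2, Dars (aspartate) by 2.94 ± 0.36 and 0.96 ± 0.16, and Rars by 2.34 ± 0.54 and 1.90 ± 0.15. Qars in experiment 1, and Farsa (phenylalanine), Nars (asparagine) and Vars in experiment 2, did not pass. Trib3 rose by 3.37 ± 0.42 in experiment 1 and 1.08 ± 0.28 in experiment 2. Ddit3 differed by -0.43 ± 0.23 in experiment 1, where it did not pass, and fell by 1.89 ± 0.17 on the log2 scale in experiment 2. Marker sums of B cells and of myeloid cells moved with activation in experiment 1: the myeloid list of 5 genes summed to 137 to 162 CPM at 48 h and 1537 to 2101 CPM in naive cells. Their part in the experiment 1 result was not tested.

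**Figure D2:**
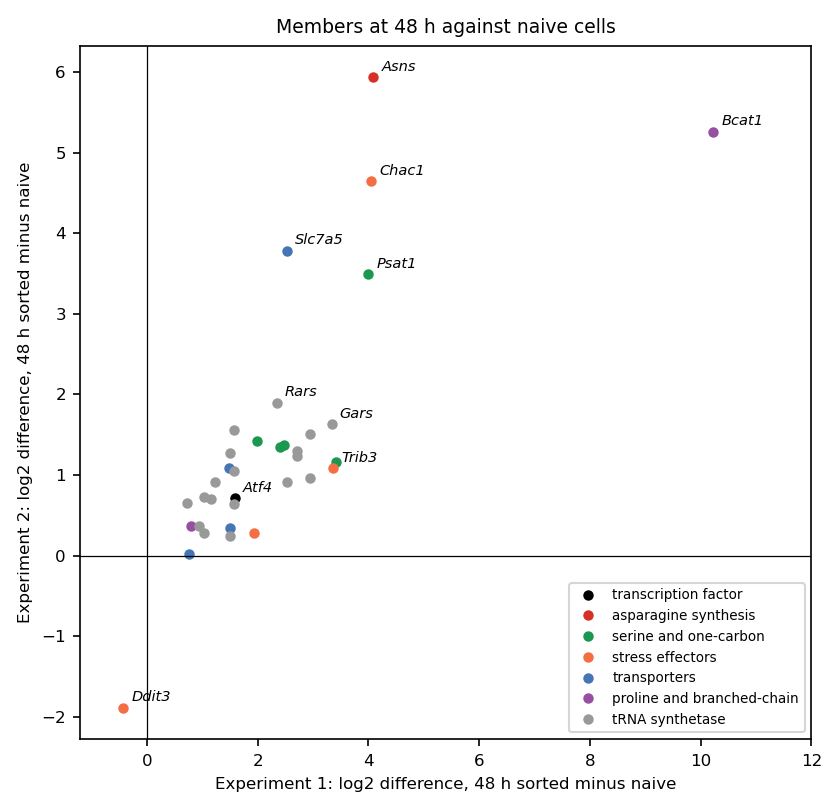
Each point is one of the 35 members tested in both experiments, coloured by role, with the log2 difference of cells sorted at 48 h minus naive cells in experiment 1 (horizontal) and experiment 2 (vertical). Ddit3 lies lowest on both axes. The value of Bcat1, at 0 in naive cells, depends on the fit's prior count.

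After 18 h most synthetases did not pass or fell from step to step, Asns and Trib3 rose by 30 h and again by 48 h, and Ddit3 fell before it rose. Between 18 and 30 h, 6 members rose and 2 fell, where 13.9% of all genes rose and 10.6% fell. Sesn2 rose by 2.14 ± 0.54, Trib3 by 1.31 ± 0.47, Asns by 1.02 ± 0.30, Psat1 by 0.46 ± 0.15, Atf4 by 0.29 ± 0.09 and Gars by 0.29 ± 0.09, while Ddit3 fell by 0.77 ± 0.19 and Nars by 0.31 ± 0.09. Between 30 and 48 h, 3 rose and 9 fell (14.9% and 11.8% of all genes). The rises were those of Trib3 (2.73 ± 0.26), Ddit3 (1.89 ± 0.17) and Asns (1.63 ± 0.21), and they were larger at the high concentration. There Ddit3 had 12.0 to 16.3 CPM at 30 h and 108 to 128 CPM at 48 h, against 7.97 to 14.4 CPM and 14.4 to 21.4 CPM at the low. Trib3 had 3.18 to 6.48 CPM and 63.8 to 85.6 CPM at the high, against 1.77 to 3.60 CPM and 3.61 to 8.86 CPM at the low. Asns had 13.8 to 19.5 CPM and 49.5 to 82.6 CPM, against 7.21 to 9.94 CPM and 9.90 to 26.5 CPM. Of the falls, 7 were of synthetases, none larger than 0.56 ± 0.13 in size, for Farsa. Leaving out high concentration replicate 2 at 48 h gave 8 calls in place of 12. All libraries at 30 h carry 1 value of a second number in their titles, and those at 18 h the other. With that number as a term, estimated from other groups, the step between 18 and 30 h had 2 members higher and 4 lower. Asns, Sesn2, Ddit3 and Nars kept their call and direction there, and Atf4, Psat1, Trib3 and Gars did not pass.

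At 72 h most of the list had fallen back. Against 48 h, 26 of 36 members were lower and 2 higher (15.3% and 16.6% of all genes), among them 17 of 19 synthetases. Mars fell by 1.32 ± 0.12, Rars by 1.00 ± 0.12, Iars by 0.97 ± 0.13, Asns by 2.13 ± 0.26 and Atf4 by 0.90 ± 0.10. Over both concentrations Ddit3 and Trib3 were the members that rose, by 0.40 ± 0.16 and 0.53 ± 0.20, and both calls were lost under other settings. At the high concentration Trib3 was lower at 72 h, with 63.8 to 85.6 CPM at 48 h and 44.6 to 49.0 CPM at 72 h. Ddit3 overlapped there, with 108 to 128 CPM and 108 to 135 CPM. At the low concentration Trib3 had 3.61 to 8.86 CPM and 21.2 to 23.1 CPM, and Ddit3 14.4 to 21.4 CPM and 28.8 to 34.2 CPM. The step within each concentration was not tested. In experiment 1 sorted cells at 72 h were lower than at 48 h in 32 of 35 members and higher in 0 (25.3% and 27.2% of all genes), and DESeq2 gave the same count of 32. Slc7a5 fell there by 2.04 ± 0.15, Bcat1 by 2.35 ± 0.15 and Shmt2 by 1.54 ± 0.09. Ddit3 (0.01 ± 0.13), Wars (0.03 ± 0.13) and Qars (-0.23 ± 0.21) did not pass.

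Against naive cells, 20 of 36 members were still higher at 72 h and Ddit3 lower (27.0% and 25.7% of all genes). The Ddit3 call takes both concentrations together: it had 121, 135 and 108 CPM at the high and 28.8 and 34.2 CPM at the low concentration, against 107, 124 and 90.3 CPM in naive cells, so the low libraries lay below the naive ones and the high libraries overlapped them. Library totals in place of TMM gave 29 calls in place of 21 and moved the median of all genes by 0.28. Kars stood 1.32 ± 0.16 above naive cells, Psat1 2.81 ± 0.25 and Slc7a5 3.68 ± 0.47, while 9 of the 19 synthetases no longer passed. Over the 8 time and concentration groups, 9 synthetases had their highest mean at 18 h, 8 at 30 h and 2 at 48 h at the low concentration. Of the 17 other members, 2 peaked at 18 h, 7 at 30 h, 6 at the high concentration at 48 h and 2 at the high concentration at 72 h.

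Between starting concentrations, the stress effectors Ddit3, Trib3 and Chac1 and the gene Asns showed the largest differences, at 48 h. At 18 h no member passed between the concentrations (edgeR; 5 members had an unadjusted p under 0.05, DESeq2 called 0 and the fit of these groups alone 1), where 1.15% of all genes were higher and 0.725% lower. At 30 h, 3 members were higher at the high concentration and 1 lower (4.63% and 3.93% of all genes). Asns had 19.4, 19.5 and 13.8 CPM at the high and 7.21, 9.94 and 8.42 CPM at the low concentration, and Chac1 5.76, 1.99 and 3.74 CPM at the high and 0.601, 1.10 and 0 CPM at the low concentration. Psph was higher by 0.57 ± 0.16 and Phgdh changed by -0.78 ± 0.24. These 4 calls fell to 0 without low replicate 1 and to 1 without high replicate 1 or high replicate 3.

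At 48 h, 10 of 36 members were higher at the high concentration and 3 lower, where 13.9% of all 9239 genes were higher and 12.0% lower. The 4 largest differences were of 3 stress effectors and Asns. Ddit3 had 128, 119 and 108 CPM at the high and 21.4, 14.4 and 19.7 CPM at the low concentration, a difference of 2.66 ± 0.21 (edgeR adjusted p = 2.03e-14). Naive cells held 90.3 to 124 CPM. Trib3 had 85.6, 63.8 and 71.0 CPM at the high and 8.86, 8.63 and 3.61 CPM at the low concentration, a difference of 3.41 ± 0.28. Chac1 had 21.8, 12.8 and 15.9 CPM at the high concentration, against 0, 0 and 0.803 CPM at the low. With 82 against 2 counts the ratio was 50.1, with an exact 95% counting interval of 13.4 to 420. Asns had 49.5, 82.6 and 76.0 CPM at the high and 9.90, 26.5 and 24.9 CPM at the low concentration, a difference of 1.77 ± 0.27. For each of these 4 genes every high library lay above every low library.

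These 4 differences and that of Hars were the calls at 48 h that held under every alternative tried. All 3 high libraries carry second number 2, as does low replicate 1, while low replicates 2 and 3 carry number 1. Within number 2, where the lone low library is assumed to vary like the others, Ddit3 differed by 2.41, Trib3 by 2.98 and Asns by 2.75. Counts of calls at 48 h were 13 in all, 7 with these groups fitted alone, 7 without low replicate 2, and 6 within number 2.

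**Figure D3:**
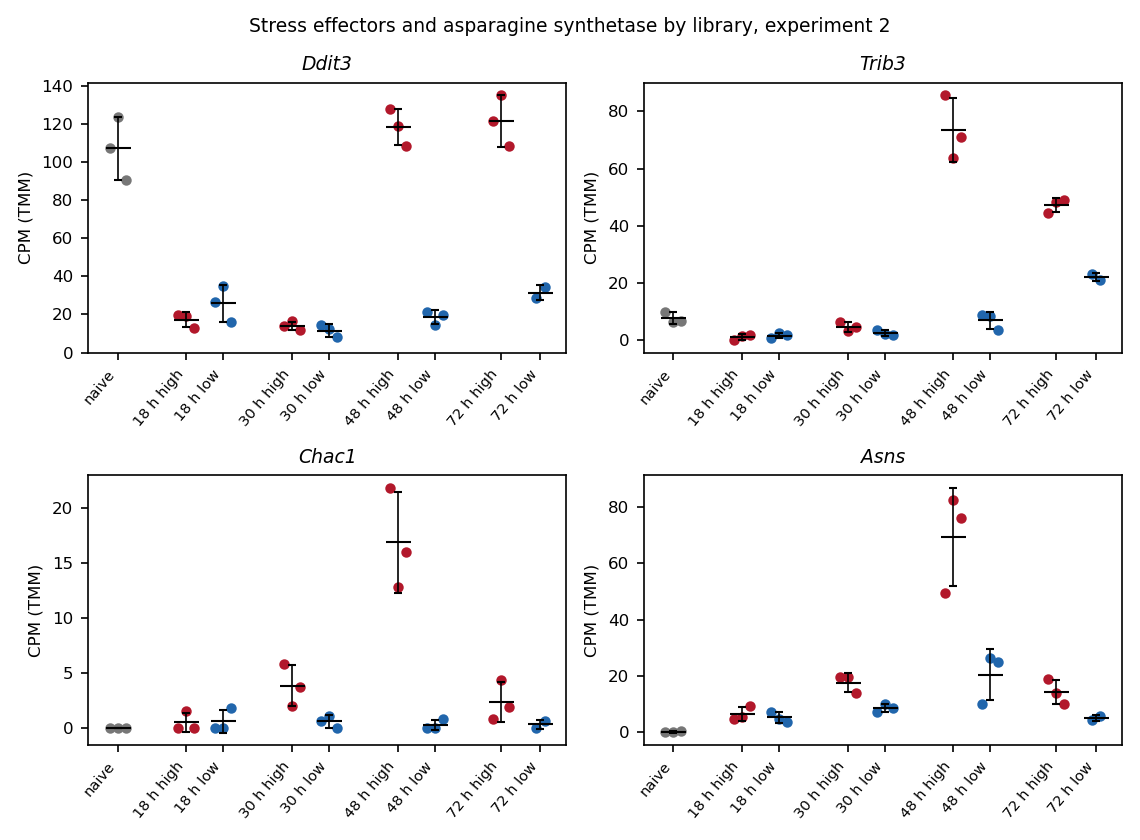
CPM of Ddit3, Trib3, Chac1 and Asns in each library of experiment 2, in naive cells (grey) and by time in hours at the high (red) and low (blue) concentration; bars are means and SD. Red points stand above blue ones at 48 h in all 4 panels, and Ddit3 starts high in naive cells.

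Atf4 mRNA had 782, 827 and 771 CPM at the high and 584, 636 and 727 CPM at the low concentration at 48 h, a difference of 0.29 ± 0.12 that did not pass (edgeR adjusted p = 0.0769). Sesn2 had 1.82 to 5.04 CPM at the high and 3.65 to 5.18 CPM at the low concentration, with overlapping groups. In the serine pathway, Psat1 differed by 0.08 ± 0.20, Psph by 0.03 ± 0.16 and Shmt2 by 0.11 ± 0.19, while Mthfd2 was 0.51 ± 0.17 higher. Slc7a5 differed by 0.12 ± 0.27, its partner Slc3a2 was 0.56 ± 0.17 higher and Slc38a2 0.44 ± 0.15 higher. These 3 higher calls were lost under 1 or more alternatives.

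Of the 19 synthetases, 3 were higher and 3 lower at 48 h (13.9% and 12.0% of all genes). Their median was 0.03, against 0.04 over all genes, and both counts were near the shares of all genes. Hars, for histidine, had 118, 102 and 123 CPM at the high and 176, 222 and 216 CPM at the low concentration, a difference of -0.84 ± 0.14 (edgeR adjusted p = 3.68e-06). Rars had 146, 146 and 119 CPM at the high and 178, 273 and 286 CPM at the low concentration, a difference of -0.85 ± 0.15. It did not pass within second number 2 alone. Farsb (-0.45 ± 0.15), Nars (0.35 ± 0.13), Cars (0.57 ± 0.21) and Vars (0.80 ± 0.30) passed more narrowly, and all 4 calls were lost under other settings.

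At 72 h, 5 members were higher at the high concentration and 11 lower, where 13.0% of all genes were higher and 13.5% lower. Ddit3 had 121, 135 and 108 CPM at the high and 28.8 and 34.2 CPM at the low concentration, a difference of 1.94 ± 0.24 (edgeR adjusted p = 1.25e-08). Trib3 had 44.6, 48.2 and 49.0 CPM at the high and 23.1 and 21.2 CPM at the low concentration, a difference of 1.09 ± 0.29. Asns had 18.8, 13.8 and 10.2 CPM against 4.38 and 5.90 CPM, a difference of 1.47 ± 0.46. In all 3 genes the concentrations did not overlap. Atf4 had 433, 460 and 436 CPM at the high and 348 and 317 CPM at the low concentration and was 0.41 ± 0.14 higher, a call lost under 6 alternatives. It was joined by Dars, 0.78 ± 0.21 higher. Chac1, with 8 counts at the high and 1 at the low concentration, did not pass (2.63 ± 1.28).

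The members that were lower at 72 h were 8 synthetases and 3 enzymes of the serine pathway. Rars had 66.5, 67.1 and 68.4 CPM at the high and 129 and 120 CPM at the low concentration, a difference of -0.89 ± 0.18 (edgeR adjusted p = 0.000179). Hars differed by -0.88 ± 0.16, Farsa by -0.77 ± 0.23, Tars (threonine) by -0.70 ± 0.19, Wars by -0.66 ± 0.24, Kars by -0.65 ± 0.19, Mars by -0.60 ± 0.19 and Gars by -0.56 ± 0.15. Phgdh differed by -0.85 ± 0.28, Psph by -0.71 ± 0.18 and Shmt2 by -0.63 ± 0.22. These mRNAs were lower in the same libraries in which Ddit3 and Trib3 mRNA was higher.

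At 72 h every high library carries second number 1 and every low library number 2, so within-number values cannot be had. With that number as a term, estimated from the other groups, 6 of the 16 calls remained: Ddit3 at 2.10, and Gars, Hars, Mars, Psph and Rars. Leaving out low replicate 1 left 8 calls and leaving out low replicate 2 left 10. Marker sums of CD8 T and NK cells were 32.7 to 39.8 CPM at the high and 19.5 to 20.0 CPM at the low concentration at 72 h, and those of myeloid cells overlapped. At 48 h both sums overlapped between the concentrations. Their part in the concentration results was not tested.

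**Figure D4:**
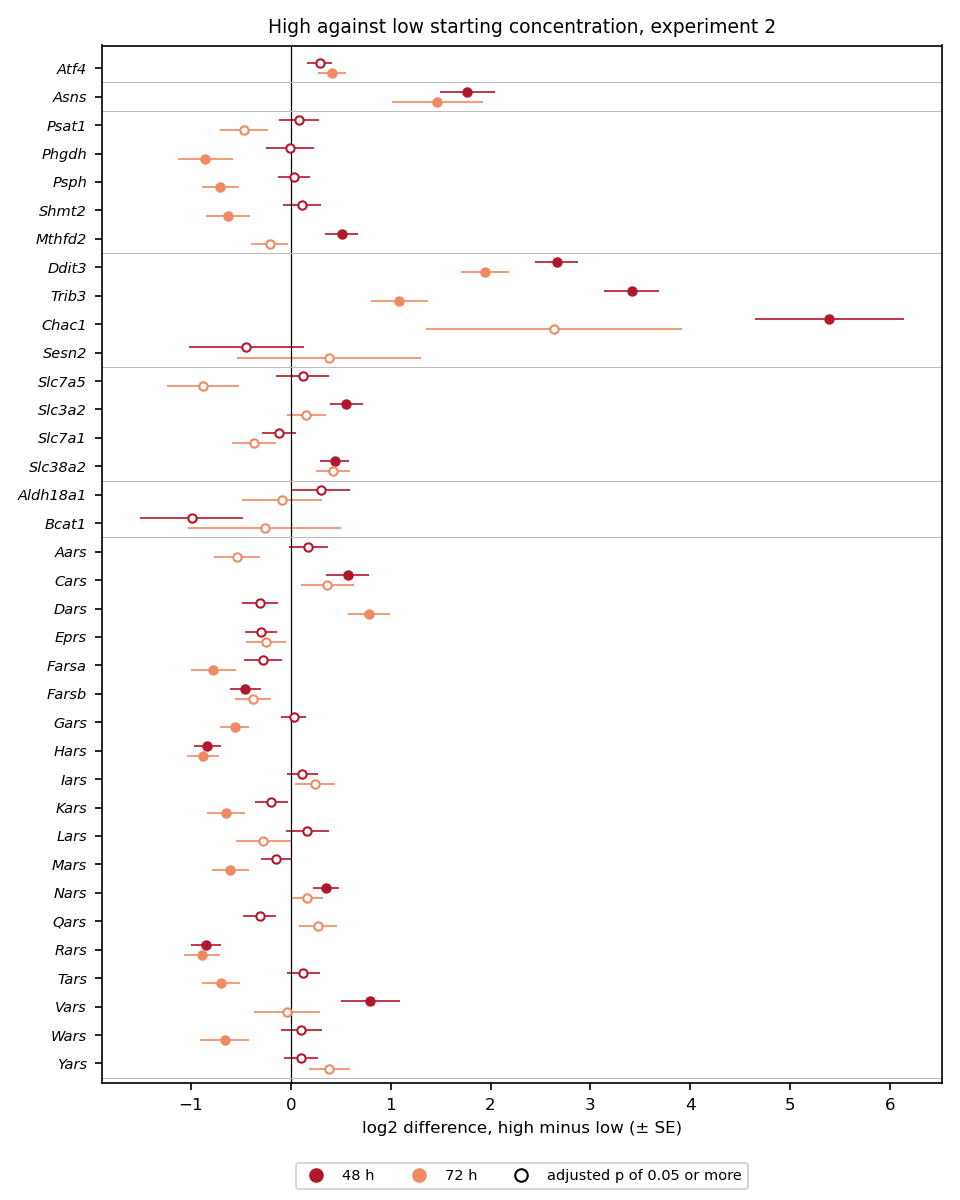
Each row is a member, with the log2 difference of the high minus the low concentration ± SE at 48 h (dark red) and 72 h (orange); open points have an adjusted p of 0.05 or more. Asns, Ddit3, Trib3 and Chac1 lie to the right of 0 at both times, and most synthetases lie to the left at 72 h.

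The change of the concentration difference with time was tested directly. Between 18 and 48 h it rose in 4 members and fell in 2 (6.32% and 7.71% of all genes). The rises were of Trib3 (3.75 ± 1.05), Ddit3 (3.28 ± 0.35), Cars (1.05 ± 0.31) and Slc3a2 (0.84 ± 0.24), and the falls of Hars (-1.15 ± 0.20) and Rars (-1.03 ± 0.21). Ddit3 stands at -0.61 in the 18 h comparison and at 2.66 in that of 48 h. Between 48 and 72 h it rose in Dars (1.09 ± 0.27) and fell in 5 members (4.68% and 7.89% of all genes): Trib3 (-2.33 ± 0.40), Tars (-0.83 ± 0.25), Psph (-0.74 ± 0.24), Mthfd2 (-0.72 ± 0.25) and Gars (-0.59 ± 0.19). The call of Trib3 held under every alternative; the other 5 did not. The count of 6 became 1 with the second number as a term, 2 with these groups fitted alone, and 1 to 3 without any of 7 libraries: high replicates 1 and 3 and low replicates 1 and 2 at 72 h, and high replicate 1 and low replicates 2 and 3 at 48 h.

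Of the wider ATF4 and stress list, 25 genes chosen with earlier results known, 18 were tested. Of these 18, 14 were higher at the high concentration at 48 h and 0 lower (median 1.78, against 0.04 over all genes), and 6 were higher and 0 lower at 72 h. Of all genes, 13.9% were higher and 12.0% lower at 48 h, and 13.0% and 13.5% at 72 h. Ddit4, an mTORC1 inhibitor, was 2.08 ± 0.17 higher at 48 h and 1.503 ± 0.19 at 72 h. Eif4ebp1 was 1.64 ± 0.14 higher at 48 h and 1.64 ± 0.17 at 72 h, and Nupr1, a stress-induced chromatin protein, was 4.29 ± 0.41 higher at 48 h. Stc2, a secreted glycoprotein, was 3.24 ± 0.58 higher at 72 h. Eif4ebp1 (0.54 ± 0.15), Stc2 (3.49 ± 0.96, on 0.148 CPM at the low concentration) and the glutamine transporter gene Slc1a5 (0.60 ± 0.19) were the genes of this list higher at 30 h.

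Neighbouring pathways were counted in the same way, beside 13.9% of all genes higher and 12.0% lower at 48 h, and 13.0% and 13.5% at 72 h. Of 10 chaperone and other genes of the ATF6 and XBP1 branches of the unfolded protein response at 48 h, the transcription factor gene Xbp1 was 1.04 ± 0.16 higher and Calr (calreticulin) differed by -0.73 ± 0.14. At 72 h 3 of this list were lower: Calr (-1.10 ± 0.15), Sdf2l1 (-1.16 ± 0.34) and Creld2 (-0.88 ± 0.32). Mitochondrial synthetases had 0 of 14 higher and 3 lower at 48 h, namely Yars2 (-1.34 ± 0.23), Aars2 (-0.91 ± 0.25) and Rars2 (-0.82 ± 0.24), and 0 called at 72 h. Cytosolic one-carbon and nucleotide genes had 6 of 8 lower at 48 h, with Shmt1 at -1.33 ± 0.21, Mthfd1 at -0.84 ± 0.16 and Paics at -0.76 ± 0.15, and 5 of 8 lower at 72 h. Of 11 eIF2 and eIF2 kinase genes, 3 were lower at 48 h, Eif2b1 (-0.94 ± 0.15), Eif2s3x (-1.80 ± 0.31) and Eif2b3 (-0.95 ± 0.24). At 72 h Eif2b5 (-1.03 ± 0.20) and Eif2b4 (-0.69 ± 0.20) were lower and Eif2ak4, which encodes the amino acid sensing kinase GCN2, was 1.35 ± 0.49 higher.

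At 72 h, mRNAs of the list were lower in cells sorted as positive for CD62L, the lymph node homing receptor, than in CD62L negative cells. In experiment 1, 1 member was higher in CD62L positive cells and 21 of 35 lower, where 10.1% of all 8961 genes were higher and 9.35% lower. In experiment 2, 0 were higher and 5 of 36 lower, where 0.682% of all genes were higher and 0.844% lower. Marker sums of other cell types moved with the sort. In experiment 1 the myeloid list summed to 281 to 305 CPM in CD62L positive and 190 to 244 CPM in CD62L negative cells, and the list of CD8 T and NK cells (5 genes) to 45.8 to 60.1 CPM against 39.02 to 44.6 CPM. In experiment 2 the myeloid sums overlapped, and those of CD8 T and NK cells were 25.9 to 32.9 CPM against 16.4 to 22.7 CPM. Their part in the result was not tested. Fitted differences had the same sign in both experiments in 33 of the 35 members tested in both, and the share of all genes that did so was not counted. Of those 35 members, 4 were lower in experiment 2 (Asns, Shmt2, Gars and Yars), and these 4 were also lower in experiment 1. They are 19.0% of the 21 lower in experiment 1. Mars, the other member lower in experiment 2, was not tested in experiment 1.

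Asns was the furthest apart in both. In experiment 1 it had 5.09, 18.0 and 8.58 CPM in CD62L positive and 82.3, 78.0 and 61.9 CPM in CD62L negative cells at 72 h, a difference of -2.71 ± 0.28 (edgeR adjusted p = 9.95e-09). In experiment 2 it had 5.47, 0.765 and 4.61 CPM in CD62L positive and 19.4, 14.8 and 15.4 CPM in CD62L negative cells, a difference of -2.12 ± 0.42 (edgeR adjusted p = 0.00246). The sorts did not overlap in either experiment, and both calls held under every alternative. Shmt2 differed by -0.95 ± 0.13 in experiment 1 and -0.92 ± 0.21 in experiment 2, Gars by -0.81 ± 0.18 and -0.50 ± 0.13, and Yars (tyrosine) by -0.66 ± 0.15 and -0.74 ± 0.19.

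In experiment 1 the lower members spanned every role. Bcat1 had 12.7, 17.0 and 21.5 CPM in CD62L positive and 65.7, 73.2 and 77.8 CPM in CD62L negative cells, a difference of -2.12 ± 0.26. Slc7a5 had 16.5, 19.1 and 23.6 CPM against 46.3, 47.2 and 59.2 CPM, a difference of -1.38 ± 0.26. Atf4 had 8.91, 14.9 and 15.0 CPM against 32.6, 39.02 and 27.4 CPM, a difference of -1.37 ± 0.31, and Chac1 and Sesn2 differed by -2.04 ± 0.53 and -1.23 ± 0.24. None of these overlapped between the sorts. In experiment 2 Atf4 differed by -0.37 ± 0.13, which did not pass. Ddit3 and Trib3 differed between the sorts by 0.01 ± 0.19 and -0.01 ± 0.21 in experiment 1 and 0.17 ± 0.22 and 0.06 ± 0.25 in experiment 2, and passed in neither.

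Wars was the synthetase that was higher in CD62L positive cells in experiment 1. It had 374, 368 and 435 CPM in CD62L positive and 258, 159 and 338 CPM in CD62L negative cells at 72 h, a difference of 0.64 ± 0.18. There 10 of 18 synthetases were lower (9.35% of all genes). The call was lost with the 2 sorts fitted alone and without CD62L negative replicate 2 or CD62L positive replicate 3. In experiment 2 Wars had 71.8, 80.4 and 63.9 CPM in CD62L positive and 72.4, 110 and 89.2 CPM in CD62L negative cells and did not pass (-0.34 ± 0.22).

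**Figure D5:**
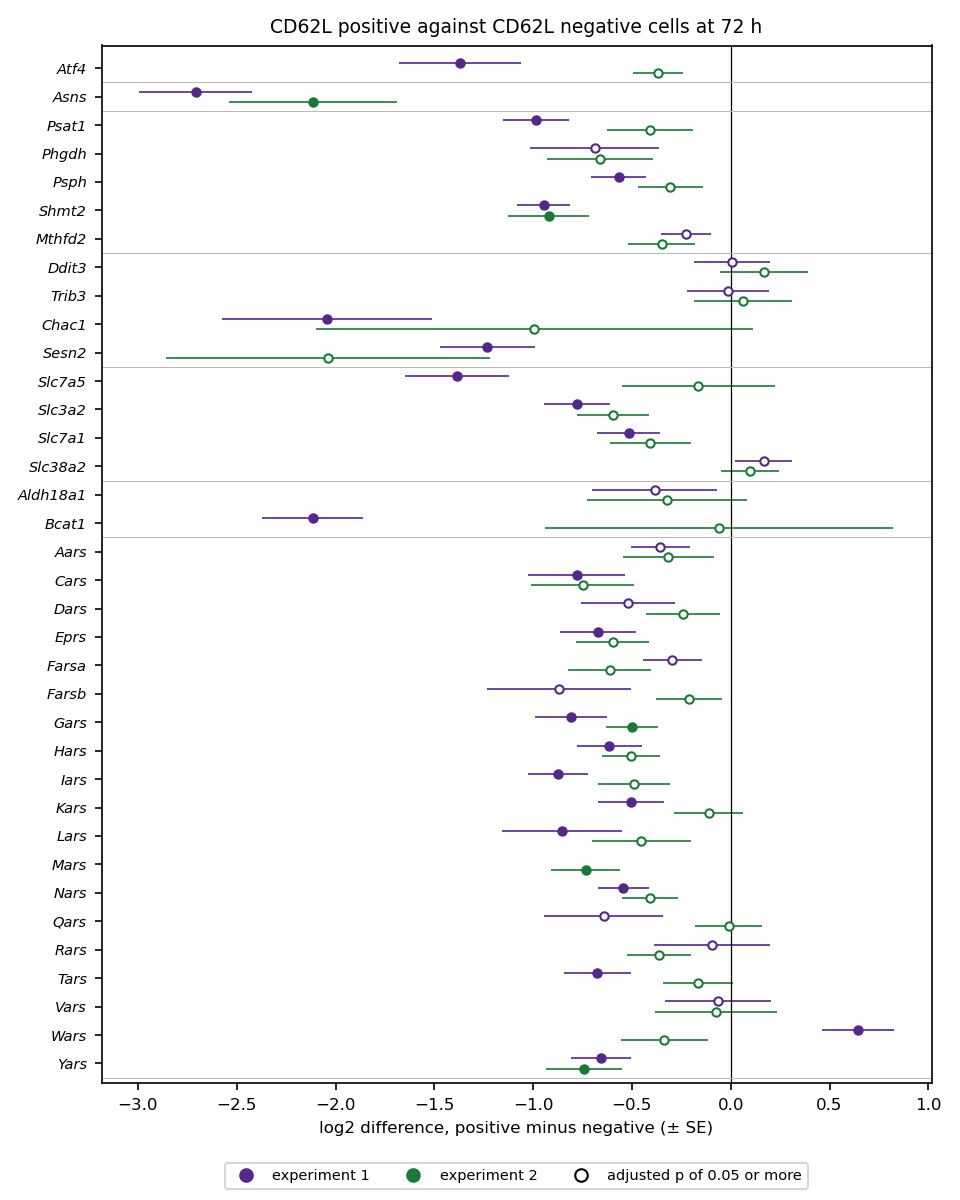
Each row is a member, with the log2 difference of CD62L positive minus CD62L negative cells ± SE at 72 h in experiment 1 (purple) and experiment 2 (green); open points have an adjusted p of 0.05 or more. Most points lie left of 0, with Asns furthest left in both experiments and Wars right of 0 in experiment 1.

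Between the sorts at 48 h, 3 members passed in experiment 1 and 9 in experiment 2, against 22 and 5 at 72 h. The share of all genes that passed also differed by time. It was 6.51% at 48 h and 19.5% at 72 h in experiment 1, and 14.5% and 1.53% in experiment 2. In experiment 1, 0 members were higher in CD62L positive cells and 3 lower (4.05% and 2.46% of all genes). Sesn2 had 50.3, 45.1 and 56.8 CPM in CD62L positive and 86.5, 96.7 and 89.7 CPM in CD62L negative cells, a difference of -0.84 ± 0.18 that held under every alternative. Farsa had 164, 175 and 209 CPM in CD62L positive and 265, 254 and 233 CPM in CD62L negative cells, a difference of -0.45 ± 0.14. In both genes the sorts did not overlap. Bcat1 differed by -0.65 ± 0.16, and Atf4 by -0.50 ± 0.22 without passing. In experiment 2, 1 member was higher and 8 lower (7.23% and 7.28% of all genes), led by Asns at -0.95 ± 0.31, Farsa at -0.72 ± 0.19, Iars at -0.61 ± 0.16 and Slc3a2 at -0.60 ± 0.17, while Slc38a2 was 0.43 ± 0.15 higher. The CD62L positive libraries there carry second number 1 alone and CD62L negative replicates 2 and 3 number 2. Within number 1 the difference of Farsa turned to 0.14: it had 64.4, 93.8 and 88.8 CPM in CD62L positive cells and 74.6 CPM in CD62L negative replicate 1, while CD62L negative replicates 2 and 3 had 164 and 163 CPM. The 9 calls became 4 with that number as a term, 5 within number 1, 5 with the sorts fitted alone, 3 without CD62L negative replicate 2, and 0, 4 and 5 without CD62L positive replicate 1, 2 and 3.

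At 72 h in experiment 2 the 5 calls became 2 without CD62L negative replicate 1 or 3 or CD62L positive replicate 2 or 3, 3 without CD62L positive replicate 1, and 8 with DESeq2. Of the other ATF4 and stress genes, 9 of 19 were lower in CD62L positive cells at 72 h in experiment 1 and 0 higher (9.35% and 10.1% of all genes). In experiment 2 none of 18 passed in either direction (edgeR), where 0.844% of all genes were lower and 0.682% higher. Atf3, a stress-induced repressor, differed by -3.12 ± 0.41 and Eif4ebp1 by -0.97 ± 0.16 in experiment 1. Cth, which makes cysteine, was at 0 in every CD62L positive library and averaged 11.7 CPM in CD62L negative cells.

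Among unactivated cells, few members separated mature from naive cells. In experiment 1, 6 of 35 members were higher in mature cells and 0 lower, where 7.82% of all genes were higher and 8.59% lower. Slc3a2 was 1.06 ± 0.22 higher (edgeR adjusted p = 0.000837), the call that held under every alternative. Dars had 110, 143 and 186 CPM in mature and 77.6, 55.2 and 49.7 CPM in naive cells, a difference of 1.41 ± 0.42. Psat1 had 80.8, 75.4 and 99.6 CPM against 93.1, 17.0 and 40.4 CPM, with overlap, a difference of 1.19 ± 0.35. Bcat1 had 9.62, 2.04 and 14.7 CPM in mature cells and 0 in naive cells, at least 1.91-fold higher over the floor. Chac1 had 7.69, 16.3 and 18.0 CPM against 0, 0 and 3.11 CPM, a ratio of 8.81 with an exact counting interval of 1.43 to 363. Mthfd2 was 0.68 ± 0.19 higher.

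The count of 6 became 1 without naive replicate 2, and 2 without naive replicate 3 or mature replicate 3. Of 10 genes of the ATF6 and XBP1 branches, 9 were higher in mature cells, with the secreted stress protein gene Manf at 1.07 ± 0.16, the chaperone gene Hsp90b1 at 0.97 ± 0.15 and the transcription factor gene Xbp1 at 1.24 ± 0.22. Of 19 other ATF4 and stress genes, 2 were higher and 5 lower, with Atf3 at -3.40 ± 0.55, Cebpb at -1.18 ± 0.24 and Gadd45a at -1.38 ± 0.33. Of all genes, 7.82% were higher and 8.59% lower in mature cells. B-cell and myeloid marker sums were lower in mature cells, with the myeloid list at 648 to 734 CPM in mature and 1537 to 2101 CPM in naive cells, and their part in these results was not tested.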

How the data were processed

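Bulk RNA was sequenced from 56 libraries of mouse CD4 T cells in 2 experiments. The authors deposited 1 table of raw counts per gene symbol and library for each experiment, and all their columns were matched to samples by title (0 left unmatched). Per the submitters' processing notes, reads were handled with HTSeq 0.9.1, STAR 2.5.2b, HISAT 0.1.5, FastQC 0.11.7 and bcl2fastq 2.17.1.14 on mm9. The sources used here do not say which table came from which aligner, nor the strand setting, annotation or any collapsing of molecular identifiers. The tables differ in how single genes were counted (Atf4 has 525 counts in experiment 1 and 33456 in experiment 2), so each was analysed on its own.

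Genes were kept with edgeR 4.0.16's filterByExpr by group (minimum count 10), scaled by TMM and fitted with its robust quasi-likelihood model, 1 fit per experiment and 1 coefficient per group, in R 4.3.3. A call needs an adjusted p (Benjamini-Hochberg, whole table) under 0.05. The SE is the size of the log2 difference over the root of F. The test was run on simulated data with known changes. A group at 0 was given a floor of 3 counts over the group, and ratios with 1 to 3 counts have exact 95% intervals, which cover counting error only. Alternatives were RLE scaling, library totals, no filter, DESeq2 1.42.0, the compared groups alone, the replicate block, the second title number as a term and each library left out. Fits within 1 value of that number were added after seeing the data. Any member may be named. Values in every library are given for the 4 called members with the largest difference in 6 comparisons and for Atf4, Asns, Psat1, Slc7a5 and Wars, where the results turn on them. Of each other list, up to 3 genes with the smallest adjusted p in a comparison are named. The members and lists were chosen with earlier results of these data known. One promoter window is not reported here.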

Additional observations from a re-analysis of the deposited data

Results flagged for a closer look

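In 12 cases the difference between the high and low concentration changed with time by a test of the change itself (edgeR, adjusted p under 0.05). These were 6 of 36 members between 18 and 48 h and 6 of 36 between 48 and 72 h. Of all genes tested, 14.0% and 12.6% passed, so the share of members was near that of all genes. Values are changes of the log2 difference of high minus low.

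Between 18 and 48 h the difference rose by 3.28 for Ddit3, 3.75 for Trib3, 1.05 for Cars and 0.84 for Slc3a2. It changed by -1.15 for Hars and -1.03 for Rars. The calls of Ddit3, Hars and Rars held under every alternative tried. That of Trib3 was lost without low concentration replicate 2 at 18 h, those of Cars and Slc3a2 under 4 and 2 alternatives.

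Between 48 and 72 h the difference rose by 1.09 for Dars and changed by -2.33 for Trib3, -0.83 for Tars, -0.74 for Psph, -0.72 for Mthfd2 and -0.59 for Gars. That of Trib3 held under every alternative. At 72 h each concentration carries a single value of the second title number, so its part in these changes and that of concentration cannot be told apart within that time.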

How the results depend on the processing

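Counts of members past the test stayed within 1.5 times the reported count under RLE scaling, library totals, no filter and the replicate block in every comparison. With the compared groups alone they became 1 in place of 0 between concentrations at 18 h, 7 in place of 13 at 48 h, 2 in place of 6 for the change between 48 and 72 h, and 5 in place of 9 between the CD62L sorts at 48 h in experiment 2. With the second title number as a term they became 6 in place of 16 at 72 h, 1 in place of 6 for the change between 48 and 72 h, and 4 in place of 9 between those sorts. Within number 2 the count at 48 h was 6, and within number 1 that of the sorts was 5. DESeq2 gave 8 in place of 5 between the sorts at 72 h in experiment 2. The causes were not tested.

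Leaving out each library in turn gave 0 to 3 calls between concentrations at 30 h, 7 to 13 at 48 h, 8 to 14 at 72 h, 5 to 7 for the change between 18 and 48 h and 1 to 8 for that between 48 and 72 h. It gave 1 to 6 between mature and naive cells. Between the CD62L sorts it gave 2 to 3 at 48 h and 19 to 22 at 72 h in experiment 1, and 0 to 7 at 48 h and 2 to 5 at 72 h in experiment 2.

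Signs turned for Slc38a2 at 18 h against naive cells (-0.029 with the groups alone, -0.0046 without high replicate 1, and -0.013 to 0.071 over all libraries left out). Between concentrations at 48 h they turned for Psat1 (-0.046 with the term, -0.17 within number 2, and -0.12 to 0.28 over the libraries left out) and Slc7a5 (-0.33 with the term, -0.072 within number 2, and -0.20 to 0.41 over the libraries left out, with -0.013 without low replicate 2). Farsa between the sorts at 48 h turned to 0.14 within number 1.

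Same-numbered libraries of different groups had a median correlation of deviations of -0.012 over 45 pairs in experiment 1 and 0.0019 over 222 pairs in experiment 2. The highest were 0.40 and 0.49, against 0.36 and 0.40 for pairs with different numbers. A median over all groups cannot show whether certain groups, such as the sorts of one time, were paired. With the replicate block, 288 of 297 results kept their direction and call and 9 lost the call, and the count between concentrations was 11 in place of 13 at 48 h and 16, as reported, at 72 h. Depth limits Chac1, Sesn2, Asns and Bcat1 in naive cells and at 18 h.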
